A study of Mus musculus with 8 samples.

Results

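The platelet-derived growth factor (PDGF) family was described here by 7 genes, chosen by name from the deposited per-library table of 48527 genes: the ligand genes Pdgfa, Pdgfb, Pdgfc and Pdgfd, the receptor genes Pdgfra and Pdgfrb, and the receptor-like gene Pdgfrl. All 7 had a mean of at least 1 FPKM (fragments per kilobase of transcript, scaled to library size) and were among the 13276 genes tested. Polyadenylated RNA came from mouse embryonic fibroblasts (MEFs), cells cultured from mouse embryos, in 8 libraries. The 4 YAP libraries came from cells transduced with wild-type YAP fused to a fluorescent protein, which was GFP in replicates 1 and 2 and mCherry in replicates 3 and 4. The 4 EV libraries came from cells transduced with a control empty vector that encoded GFP in replicates 1 and 2 and mCherry in replicates 3 and 4. Both groups received lentivirus, grew in medium with doxycycline at 1 µg/mL and were sorted on the vector's fluorescence. The labels name no mouse strain or embryonic stage and do not say whether replicates were separate cultures. The p-values therefore reflect how these libraries vary, which may be technical variation alone.

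PDGFs are secreted dimers that act on 2 receptor tyrosine kinases at the cell surface, and in fibroblasts they drive division, migration and survival. PDGF-A and PDGF-B are cut by furin-type proteases before release. PDGF-C and PDGF-D are released with an N-terminal CUB domain that must be removed outside the cell, for which tissue plasminogen activator is known for PDGF-C and urokinase and matriptase for PDGF-D. PDGF-A and PDGF-C act mainly on the alpha receptor, PDGF-D mainly on the beta receptor and PDGF-B on both. The study was designed to compare fibroblasts transduced with YAP, a co-activator that works mainly through TEAD transcription factors, with fibroblasts that carry the control vector. The Yap1 transcript itself ranged from 80.0 to 84.9 FPKM in libraries labelled YAP and from 88.4 to 93.2 FPKM in libraries labelled EV (limma adjusted p = 0.259). It was lower in every library labelled YAP, so it does not check the labels, and every direction given here refers to the libraries as labelled.

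In the test over all 8 libraries, 1 ligand and 1 receptor passed between YAP and EV. Pdgfd was 2.09 times as high in YAP as in EV libraries, and Pdgfra was 0.673 times as high. At an adjusted p under 0.05 (limma with Benjamini-Hochberg adjustment over all tested genes), 2 of the 7 members were called, 1 higher and 1 lower, against 1.76% of all tested genes (0.934% higher and 0.821% lower). Without 1 library in turn, Pdgfd stayed called in 7 of 8 fits and Pdgfra in 0 of 8. In 3 members, Pdgfd, Pdgfra and Pdgfrb, every YAP library lay on 1 side of every EV library, against 9.46% of all tested genes. The member median of the log2 difference was -0.051, with 2 members above 0 and 5 below, beside a median of -0.0038 over all tested genes.

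**Figure D1:**
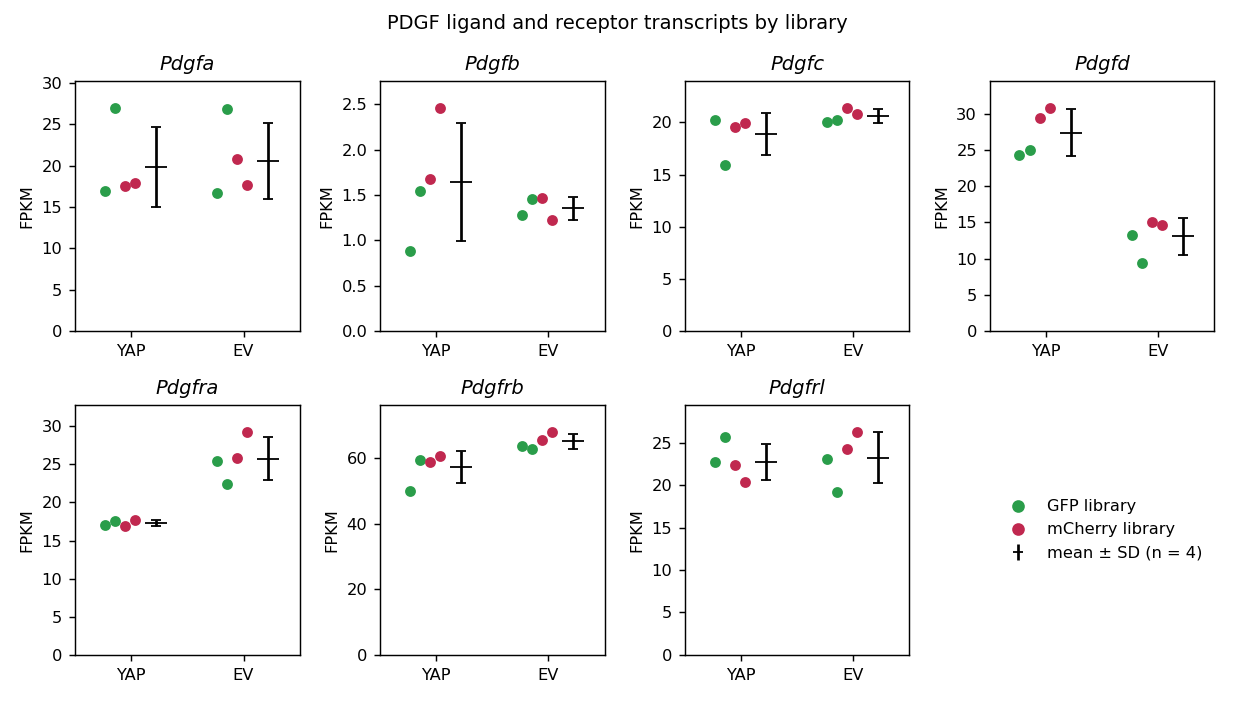
FPKM of each PDGF ligand and receptor gene in the 4 YAP and the 4 EV libraries, with 1 point per library coloured by reporter (green GFP, red mCherry) and the mean ± SD of 4 libraries in black. All 4 YAP libraries lie above all 4 EV libraries for Pdgfd and below them for Pdgfra and Pdgfrb, and the groups overlap for the other genes.

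Among the ligands, only Pdgfd was called. Pdgfd, whose product is made as a latent dimer and signals mainly through the beta receptor, stood at 24.3, 25.0, 29.4 and 30.8 FPKM in YAP replicates 1 to 4, against 13.3, 9.43, 15.0 and 14.7 FPKM in EV replicates 1 to 4. The lowest YAP library was therefore above the highest EV library, and within each group the mCherry libraries were higher than the GFP libraries. The means were 27.4 ± 3.24 FPKM in YAP and 13.1 ± 2.56 FPKM in EV libraries (SD, n = 4 each). On the log2 scale Pdgfd was 1.05 higher in YAP libraries (SE 0.109, 95% interval 0.793 to 1.3, limma adjusted p = 0.00874). The two-sided p from exact permutation was 0.0286, and with 4 libraries on each side it cannot be smaller. Libraries were permuted without regard to reporter, here and in the other exact tests of 4 against 4. Within GFP libraries the log2 difference was 1.1 (SE 0.16) and within mCherry libraries 0.996 (SE 0.16). In limma with the spread taken from all 8 libraries, the adjusted p was 0.0406 for GFP and 0.101 for mCherry. When limma was fitted to 1 reporter's libraries alone, the adjusted p was 0.212 and 0.163. The difference between the reporters was -0.105 (SE 0.226, limma adjusted p = 0.907). Without YAP replicate 2 the adjusted p of limma was 0.0507, and without any other 1 library it was 0.0149 to 0.043. In the authors' deposited table Pdgfd was at 29.6 FPKM in the YAP arm and 14.4 FPKM in the control arm (q = 0.000502), and it was the only member marked significant there, against 5.95% of the genes that table tests.

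Pdgfd (ENSMUSG00000032006) lies on chromosome 9, 6168584 to 6378850, plus strand (GRCm38, the assembly that mm10 names). The annotation places 1 other gene inside it, Ddi1, on the opposite strand, which averaged 0.0345 FPKM in YAP libraries and was listed at 0 in EV libraries. No other tested gene lay within 200 kb of Pdgfd. RefSeq (GRCm38.p6) gives promoter windows of 250 bases before to 50 after a start site for 4 of the 7 genes. Those of Pdgfd and Pdgfra, the members called, and of Pdgfc, which holds the searched TEAD motif, are shown. They run 5′ to 3′ on the gene's strand, with matches to any searched motif in capitals.
Pdgfd, chr9:6168236-6168535, plus strand: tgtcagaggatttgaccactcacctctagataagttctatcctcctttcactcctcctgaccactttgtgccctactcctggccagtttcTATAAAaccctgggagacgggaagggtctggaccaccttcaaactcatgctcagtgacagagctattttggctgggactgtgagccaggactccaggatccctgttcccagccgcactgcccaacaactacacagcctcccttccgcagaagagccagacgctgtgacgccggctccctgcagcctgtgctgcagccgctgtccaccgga
Pdgfra, chr5:75152001-75152300, plus strand: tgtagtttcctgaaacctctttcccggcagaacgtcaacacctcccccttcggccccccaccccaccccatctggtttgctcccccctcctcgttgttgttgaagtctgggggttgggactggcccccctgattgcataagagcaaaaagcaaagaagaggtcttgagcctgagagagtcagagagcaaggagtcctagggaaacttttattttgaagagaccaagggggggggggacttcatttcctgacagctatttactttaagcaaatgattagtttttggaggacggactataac
Pdgfc, chr3:81036166-81036465, plus strand: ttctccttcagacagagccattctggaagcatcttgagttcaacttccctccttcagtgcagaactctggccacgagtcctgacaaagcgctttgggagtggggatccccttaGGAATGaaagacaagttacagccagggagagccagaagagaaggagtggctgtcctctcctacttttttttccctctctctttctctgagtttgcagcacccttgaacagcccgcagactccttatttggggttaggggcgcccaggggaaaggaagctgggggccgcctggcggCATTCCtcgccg

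Both strands were searched for the TEAD motif GGAATG, which reads CATTCC on the other strand. The AP-1 motif was spelled TGANTCA. The GC box was spelled GGGCGG. The TATA box was spelled TATAAA. These motifs overlapped at no match in the members' windows. The Pdgfd window held 1 match to TATAAA, from 160 bases before the start site, and none of the other motifs. This is a match of letters, and whether it acts as a TATA box was not tested. TATAAA was found in 13.6% of all 32851 windows. The Pdgfra window held no match, which says only that these letters are not in it. The Pdgfc window held the TEAD motif at 137 bases before and 39 bases after the start site, and 14.7% of all windows held at least 1. Both Pdgfa windows held the GC box (1 and 2 matches), which 35.7% of all windows held.

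The other ligands did not pass the test. Pdgfc, whose product is a latent ligand of the alpha receptor, stood at 20.2, 15.9, 19.6 and 19.9 FPKM in YAP replicates 1 to 4 and at 20.0, 20.2, 21.4 and 20.8 FPKM in EV replicates 1 to 4. YAP replicate 2 was low and the other YAP libraries lay within or just below the EV range. The log2 difference was -0.128 (SE 0.0872, limma adjusted p = 0.566), with a 95% interval of -0.332 to 0.0774. Pdgfc lies on chromosome 3, 81036416 to 81214040, plus strand.

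Pdgfa encodes the classical alpha receptor ligand. It stood at 16.9, 27.0, 17.5 and 17.9 FPKM in YAP replicates 1 to 4 and at 16.7, 26.9, 20.8 and 17.7 FPKM in EV replicates 1 to 4. Replicate 2 was the highest library of both groups, at nearly the same level, and the groups overlapped. The log2 difference was -0.051 (SE 0.192, limma adjusted p = 0.934), with a 95% interval of -0.503 to 0.4. Pdgfa lies on chromosome 5, 138976014 to 138997370, minus strand, and overlaps an antisense transcript, 6330403L08Rik, at 1.76 FPKM in YAP and 2.04 FPKM in EV libraries. The library kit marks strand, but the counting settings are not given in the sources used here.

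Pdgfb, whose product binds both receptors, was the lowest member, at the 5.36th percentile of mean level among tested genes. It stood at 0.885, 1.54, 1.68 and 2.46 FPKM in YAP replicates 1 to 4 and at 1.28, 1.46, 1.47 and 1.22 FPKM in EV replicates 1 to 4. The YAP libraries spread on both sides of the EV libraries, at 0.159 on the log2 scale for YAP minus EV (SE 0.245, limma adjusted p = 0.815, 95% interval -0.416 to 0.735). Endothelial cells, megakaryocytes and macrophages are known sources of PDGF-B in tissue. Of 11 endothelial markers, Tie1 and Cldn5 were listed at 0 in all 8 libraries and 9 averaged under 1 FPKM. The summed level of the 11 was 12.2 to 40.8 FPKM in YAP and 16.7 to 32.7 FPKM in EV libraries. This sum rests mainly on Erg (10.3 ± 0.874 FPKM in YAP and 17.3 ± 1.57 FPKM in EV libraries) and Egfl7. Egfl7 stood at 26.2 FPKM in YAP replicate 2 and 12.1 FPKM in EV replicate 3, and was listed at 0 in all other libraries. Of 6 platelet and megakaryocyte markers, Gp1bb and Gp9 were listed at 0 in all 8 libraries, the sum was 7.44 to 14.5 FPKM in YAP and 12.6 to 20.1 FPKM in EV libraries, and none of the 3 tested passed (Ppbp adjusted p = 0.073 and Pf4 adjusted p = 0.499, limma). Summed over 17 macrophage markers, none of which was at 0 throughout, the level was 188 to 413 FPKM in YAP and 331 to 463 FPKM in EV libraries. The part of these cells in the Pdgfb level was not tested. Pdgfb lies on chromosome 15, 79995874 to 80014977, minus strand.

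**Figure D2:**
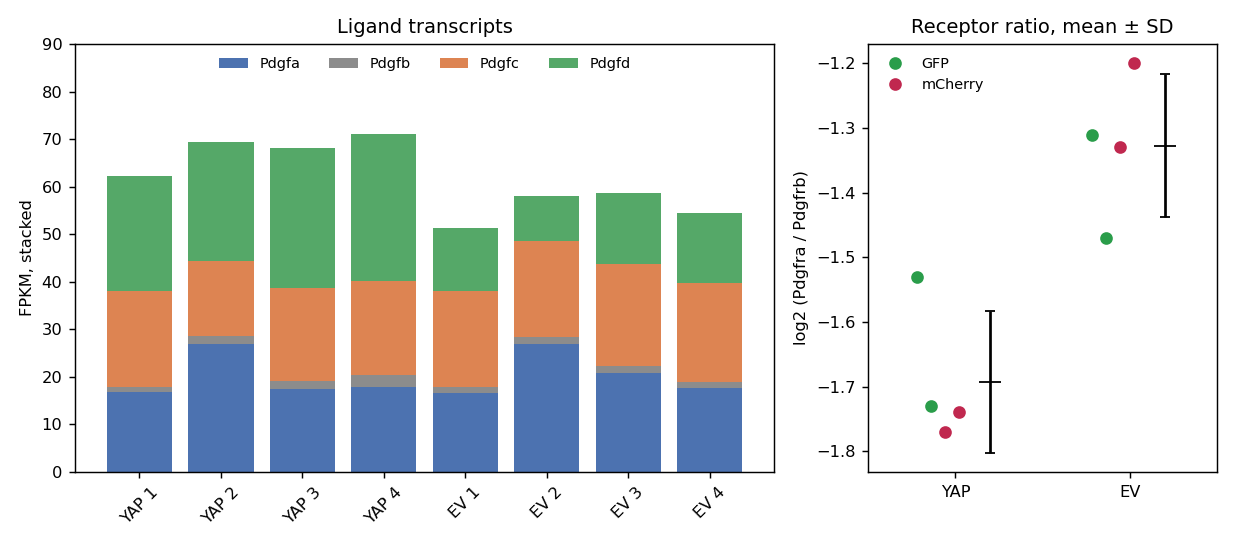
Left, stacked FPKM of the 4 ligand genes in each library, with YAP replicates 1 to 4 left of EV replicates 1 to 4; right, the log2 ratio of Pdgfra to Pdgfrb in each library, with mean ± SD of 4 libraries. The Pdgfd band is taller in every YAP library, and the ratio is between -1.77 and -1.53 in YAP and between -1.47 and -1.2 in EV libraries.

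FPKM are scaled by transcript length, so levels of different genes can be set side by side. The 4 ligand genes summed to 62.3, 69.4, 68.2 and 71.1 FPKM in YAP replicates 1 to 4 and to 51.2, 58.0, 58.7 and 54.5 FPKM in EV replicates 1 to 4. Every YAP sum was above every EV sum, with means of 67.8 ± 3.85 FPKM in YAP and 55.6 ± 3.47 FPKM in EV libraries (SD, n = 4 each). Pdgfd made up 40.4 ± 3.53% of the ligand sum in YAP libraries and 23.7 ± 5.0% in EV libraries. Pdgfc made up 28.0 ± 3.98% in YAP and 37.1 ± 1.83% in EV libraries, although its own level did not pass the test. The ratio of Pdgfd to Pdgfc was 1.46 ± 0.175 in YAP libraries and 0.635 ± 0.114 in EV libraries, so that Pdgfd was the more abundant of these 2 in all 4 YAP libraries and the less abundant in all 4 EV libraries. These shares restate the Pdgfd difference and were not tested apart from it.

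Among the receptors, only Pdgfra was called. Pdgfra, the alpha receptor and a widely used marker of mesenchymal progenitors, stood at 17.0, 17.6, 16.9 and 17.7 FPKM in YAP replicates 1 to 4, against 25.4, 22.4, 25.8 and 29.3 FPKM in EV replicates 1 to 4. The YAP libraries lay within 1 FPKM of each other and all below the EV libraries, which spread more widely. The log2 difference was -0.55 (SE 0.0839, 95% interval -0.75 to -0.355, limma adjusted p = 0.0282), and the exact two-sided permutation p was 0.0286. Among GFP libraries it was -0.453 (SE 0.11) and among mCherry libraries -0.651 (SE 0.11), a difference between reporters of -0.198 (SE 0.155, limma adjusted p = 0.714). The call did not hold without any 1 of the 8 libraries, where the log2 difference was -0.608 to -0.496 and the adjusted p of limma 0.0561 to 0.108. In bulk RNA of the sorted cells, fewer cells that express Pdgfra and less Pdgfra RNA per cell cannot be told apart.

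Pdgfra (ENSMUSG00000029231) lies on chromosome 5, 75152292 to 75198215, plus strand, and has 9 annotated transcripts, the most of the 7 genes. The 3 annotated genes that overlap it, Mir7025, Gm42802 and Gm42803, were listed at 0 in all 8 libraries. The 1 tested gene within 200 kb was Chic2, which averaged 26.2 ± 4.97 FPKM in YAP and 24.2 ± 9.61 FPKM in EV libraries (limma adjusted p = 0.821). Of 8 tested markers of PDGFRA-positive progenitors, 1 rose, 0 fell and 7 did not pass, with a median log2 difference of -0.055. The one that rose was Osr1, a zinc finger transcription factor of mesenchymal progenitors, at 84.6 ± 3.9 FPKM in YAP and 57.9 ± 1.68 FPKM in EV libraries (log2 0.543, SE 0.0536, limma adjusted p = 0.00724). Its direction was opposite to that of Pdgfra. The summed level of the 11 progenitor markers was 381 to 423 FPKM in YAP and 337 to 357 FPKM in EV libraries. Most of it was Ly6a (144 FPKM in YAP and 120 FPKM in EV libraries), Cd248 (140 and 137 FPKM) and Osr1. Of the 8 tested markers, 4 lay above 0 and 4 below. Every YAP library was above every EV library for Ly6a (limma adjusted p = 0.124). The reverse held for Gli1, at 1.22 ± 0.233 FPKM in YAP and 2.3 ± 0.155 FPKM in EV libraries (limma adjusted p = 0.11).

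The level of Pdgfra depended on the deposited table. In the authors' deposited table it stood at 46.3 FPKM in the YAP arm and 60.7 FPKM in the control arm (q = 0.421). These values are 2.67 and 2.36 times the means of the YAP and EV libraries, where the ratio of the same kind had a median of 1.14 over all tested genes in either arm. Both ratios lay above the 95th percentile of tested genes, at 2.02 in the YAP and 2.05 in the EV arm. For Pdgfb, Pdgfc, Pdgfd, Pdgfrb and Pdgfrl the ratios were 1.08 to 1.14, close to the median. For Pdgfa the ratio was 1.19 in the YAP arm and 1.48 in the EV arm. The direction for Pdgfra was the same in both tables, with the YAP arm at 0.763 times the control arm in the authors' deposited table. The cause of the different level was not tested.

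**Figure D3:**
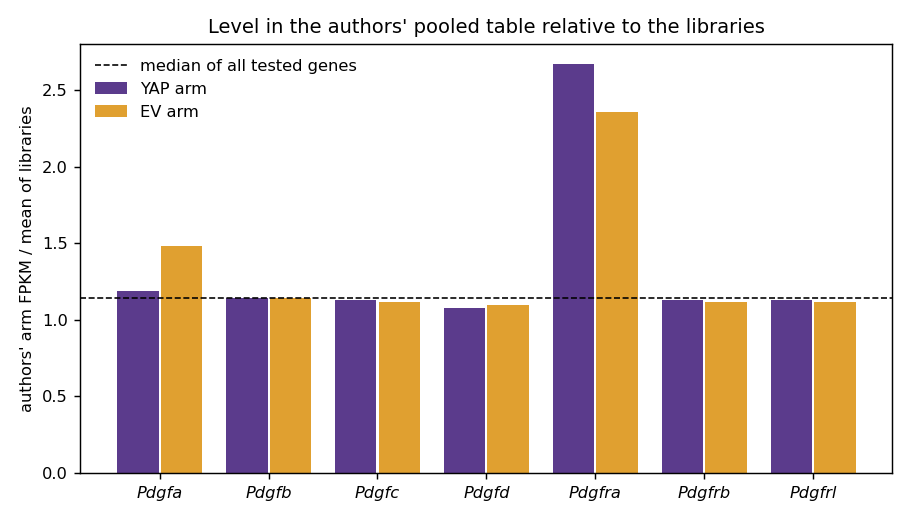
Ratio of the FPKM in the authors' pooled table to the mean FPKM of the libraries for each gene, with the YAP arm left of the EV arm and the median of all tested genes (1.14) as a dashed line. Pdgfra stands at 2.67 in the YAP arm and 2.36 in the EV arm, and the other genes at 1.08 to 1.48.

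Pdgfrb, the beta receptor and a marker of pericytes and other mural cells, was the most abundant member, at the 87.1st percentile of mean level among tested genes. It stood at 50.0, 59.5, 58.9 and 60.6 FPKM in YAP replicates 1 to 4, against 63.9, 63.0, 65.7 and 68.2 FPKM in EV replicates 1 to 4. All YAP libraries were below all EV libraries, YAP replicate 1 by the most, but the difference was small. The means were 57.2 ± 4.89 FPKM in YAP and 65.2 ± 2.28 FPKM in EV libraries (log2 -0.189, SE 0.0703, 95% interval -0.355 to -0.0239). The exact two-sided permutation p was 0.0286 and the unadjusted p of limma 0.0302, but the adjusted p of limma was 0.286, so Pdgfrb is not called. In the authors' deposited table it stood at 64.5 FPKM in the YAP arm and 73.1 FPKM in the control arm (q = 0.175). Pdgfrb lies on chromosome 18, 61045150 to 61085061, plus strand, with Csf1r, the receptor of macrophage colony-stimulating factor, 15.5 kb away. Csf1r averaged 6.46 ± 1.91 FPKM in YAP and 6.79 ± 2.39 FPKM in EV libraries (limma adjusted p = 0.912). None of the 26 tested neighbours within 200 kb of any member passed the test.

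Of 8 tested mural cell markers, 0 rose, 2 fell and 6 did not pass, with a median log2 difference of -0.374 and 2 of 8 above 0. The groups did not overlap for 6 of the 8. Among all tested genes, 1.76% were called and the groups did not overlap for 9.46%. Cnn1, the smooth muscle calponin, averaged 21.5 ± 6.66 FPKM in YAP and 43.1 ± 3.97 FPKM in EV libraries (limma adjusted p = 0.0223). Mcam, a cell adhesion molecule of pericytes and endothelium, averaged 19.1 ± 2.82 FPKM in YAP and 28.4 ± 0.984 FPKM in EV libraries (limma adjusted p = 0.0485). Rgs5, Abcc9 and Kcnj8, which define pericytes in mouse brain, each averaged under 1 FPKM in both groups. Summed over the 13 markers the level was 1060 to 1580 FPKM in YAP and 1550 to 1640 FPKM in EV libraries. Most of it was Acta2 (652 ± 207 FPKM in YAP and 934 ± 36.3 FPKM in EV libraries) and Tagln (565 and 540 FPKM). Acta2 stood at 470, 476, 843 and 819 FPKM in YAP replicates 1 to 4 and did not pass (limma adjusted p = 0.12). The part of such cells in the receptor levels was not tested. The call of Cnn1 held without YAP replicate 4 and was lost without any other 1 library, and that of Mcam was lost without any 1 library (adjusted p up to 0.0941 and 0.157).

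The receptor balance was compared within each library, which needs no scaling between libraries. Pdgfrb was 2.94, 3.38, 3.49 and 3.42 times Pdgfra in YAP replicates 1 to 4 and 2.51, 2.81, 2.55 and 2.33 times Pdgfra in EV replicates 1 to 4. All 4 YAP libraries were more weighted to the beta receptor than any EV library. In the authors' deposited table, where Pdgfra stood higher, Pdgfrb was only 1.39 times Pdgfra in the YAP arm and 1.21 times in the control arm, so the size of the ratio depends on the table while its direction does not. The mean log2 ratio of Pdgfra to Pdgfrb was -1.69 ± 0.11 in YAP and -1.33 ± 0.11 in EV libraries (SD, n = 4 each), a difference of -0.363 (exact two-sided permutation p = 0.0286, the smallest possible). Among GFP libraries it was -0.237 and among mCherry libraries -0.49, where an exact permutation of 2 against 2 values cannot go below p = 0.333. The ratio restates the Pdgfra and Pdgfrb differences of the same libraries and is not a separate result.

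Pdgfrl encodes a secreted protein related to the outer part of the receptors and without a kinase. It stood at 22.7, 25.6, 22.4 and 20.4 FPKM in YAP replicates 1 to 4 and at 23.1, 19.2, 24.3 and 26.3 FPKM in EV replicates 1 to 4. The groups overlapped, at -0.024 on the log2 scale for YAP minus EV (SE 0.118, limma adjusted p = 0.954, 95% interval -0.301 to 0.253). The difference was 0.189 (SE 0.129) within GFP and -0.237 (SE 0.129) within mCherry libraries. The difference between reporters of -0.426 (SE 0.182) had an unadjusted p of 0.057 in limma and an adjusted p of 0.528. Pdgfrl lies on chromosome 8, 40926212 to 40990785, plus strand.

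**Figure D4:**
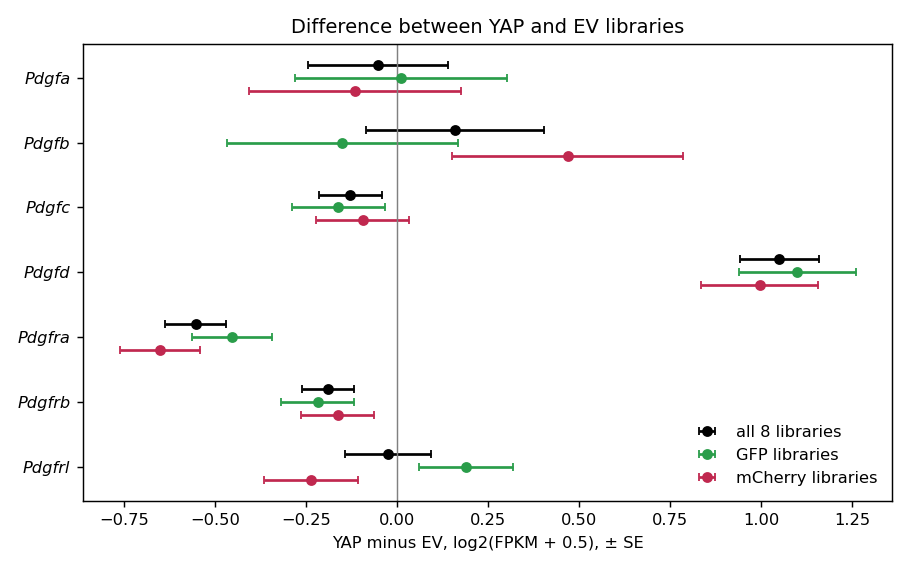
Difference between YAP and EV libraries in log2(FPKM + 0.5) for each gene, ± SE, over all 8 libraries (black), within GFP (green) and within mCherry libraries (red). Pdgfd lies at 1.05 and Pdgfra at -0.55 with the same sign under both reporters, while Pdgfrl is at 0.189 in GFP and -0.237 in mCherry libraries.

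The order of the levels differed between the groups. In YAP libraries Pdgfrb came first, followed by Pdgfd, Pdgfrl, Pdgfa, Pdgfc, Pdgfra and Pdgfb. In EV libraries it was Pdgfrb, Pdgfra, Pdgfrl, Pdgfc, Pdgfa, Pdgfd and Pdgfb. Pdgfrb stood clear at the top and Pdgfb at the bottom in both groups, with ranges that met no neighbour's, and in EV libraries the Pdgfd range also met no neighbour's. The ranges of all other neighbours overlapped, so their order is not fixed beyond the spread. Pdgfd was second in YAP and sixth in EV libraries, and Pdgfra sixth in YAP and second in EV libraries. In the authors' deposited table Pdgfra was second in both arms, so its lower place in YAP libraries is not seen there, and Pdgfd had rank 3 in the YAP arm and rank 6 in the control arm.

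Between the reporters, 0 of the 7 members passed at an adjusted p under 0.05 in limma, against 0.0904% of all tested genes, and 1 had an unadjusted p under 0.05. That was Pdgfd, with a log2 difference of 0.338 for mCherry minus GFP (SE 0.109, unadjusted p = 0.0164, adjusted p = 0.376). For the difference of the YAP effect between reporters 0 of the 7 passed in limma, also at an unadjusted p under 0.05, against 0.0678% of all tested genes by adjusted p.

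Profiles were compared over the 8 libraries by the root mean square (RMS) difference of log2(FPKM + 0.5), with each gene centred on its own mean. Genes with provisional symbols, such as Gm numbers and Rik endings, were left out. The genes whose profiles were most like a member's were found among the rest. Those closest to Pdgfd were Stmn2, a microtubule-destabilising stathmin, St8sia2, a polysialyltransferase, and Adamts5, an aggrecanase, with RMS differences of 0.13, 0.17 and 0.18, beside an RMS of 0.56 for Pdgfd about its own mean. Stmn2 averaged 16.5 ± 1.46 FPKM in YAP and 7.49 ± 0.908 FPKM in EV libraries. St8sia2 averaged 5.4 ± 1.04 FPKM in YAP and 2.27 ± 0.304 FPKM in EV libraries. Those closest to Pdgfra were Daam2, a formin, Thbs2, thrombospondin 2, and Col6a1, a collagen VI chain, at 0.083, 0.091 and 0.091 beside an RMS of 0.29 for Pdgfra. Thbs2 averaged 71.2 ± 4.8 FPKM in YAP and 104 ± 7.43 FPKM in EV libraries. Those closest to Pdgfrb were Gpc1, a glypican, Cxcl12, a chemokine, and Ankhd1, at 0.031, 0.038 and 0.041 beside 0.13 for Pdgfrb. For the members that differed little between the groups the closest were Rufy1, Amd-ps4 and Tmem41b for Pdgfa, Rps2, Fam43a and Dcxr for Pdgfb, Smarca5 and Cenpb for Pdgfc, and Brip1os, Dstyk and Synrg for Pdgfrl.

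The genes that release and hold PDGF ligands mostly did not pass the test. Of 11 tested genes of ligand activation and co-receptors, 2 rose, 0 fell and 9 did not pass, with a median log2 difference of 0.094. The groups did not overlap for 5 of the 11. Over all tested genes, 1.76% were called and the groups did not overlap for 9.46%. Pcsk6, a furin-type proprotein convertase, stood at 12.4, 11.1, 9.09 and 12.4 FPKM in YAP replicates 1 to 4 and at 5.84, 4.54, 4.89 and 6.51 FPKM in EV replicates 1 to 4 (log2 0.984, SE 0.152, limma adjusted p = 0.0295). Every YAP library was above every EV library. The call of Pcsk6 held without YAP replicate 3 and was lost without any other 1 library (adjusted p up to 0.119).

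The proteases that activate the ligands, other than Pcsk6, did not pass the test where tested, and are named for their role after their values were seen. Plau, urokinase, averaged 53.0 ± 5.4 FPKM in YAP and 41.8 ± 3.55 FPKM in EV libraries (log2 0.339, limma adjusted p = 0.0672). Plat, tissue plasminogen activator, averaged 39.9 ± 1.39 FPKM in YAP and 50.2 ± 3.21 FPKM in EV libraries (log2 -0.328, limma adjusted p = 0.0829). St14, matriptase, averaged under 1 FPKM in both groups and was not tested. Furin averaged 38.8 ± 2.42 FPKM in YAP and 39.5 ± 2.64 FPKM in EV libraries, and the co-receptor Nrp1 47.6 ± 2.05 FPKM in YAP and 46.5 ± 0.911 FPKM in EV libraries (limma adjusted p = 0.882 and 0.849).

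**Figure D5:**
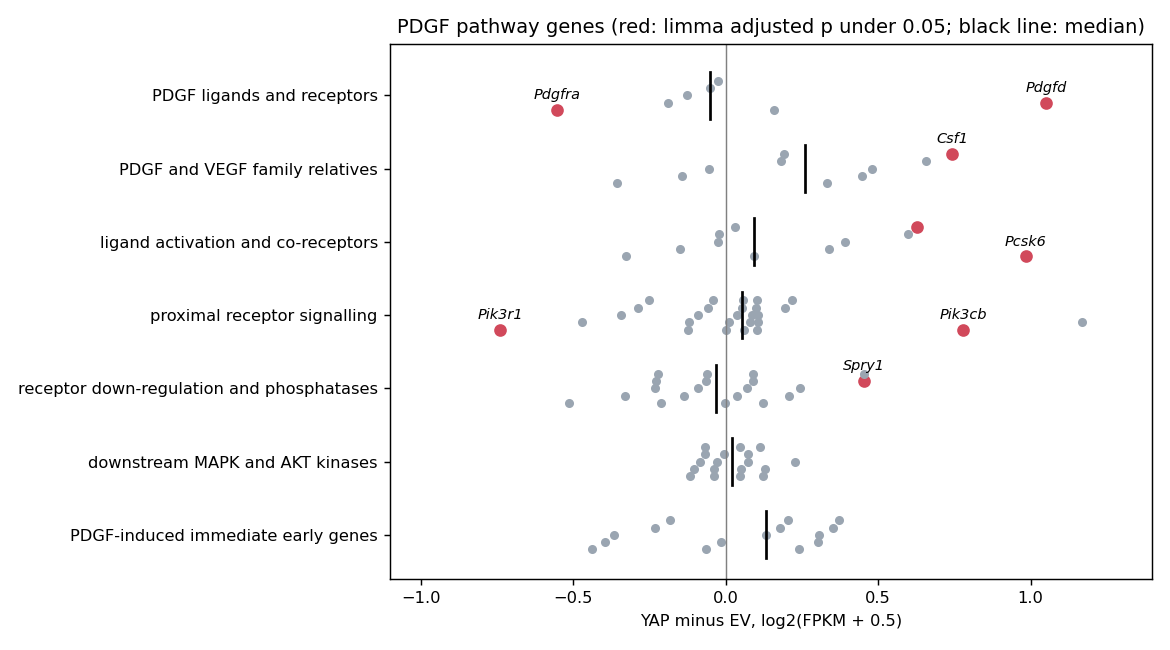
Difference between YAP and EV libraries in log2(FPKM + 0.5) for the PDGF genes and 6 lists of related genes, with 1 point per tested gene, genes at an adjusted p under 0.05 in red, labelled where the text describes them, and the list median as a black line. Pik3r1 lies at -0.739 and Pik3cb at 0.78, and no gene of the kinase cascade or of the immediate early list is red.

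Inside the cell, the phosphorylated receptors bind adaptors and enzymes, among them phosphoinositide 3-kinase (PI3K). Of 27 genes of proximal receptor signalling, all tested, 1 rose, 1 fell and 25 did not pass, with a median log2 difference of 0.055. The one that fell was Pik3r1, a regulatory subunit of the kind that docks PI3K on the receptor. It stood at 7.33, 5.85, 6.72 and 6.33 FPKM in YAP replicates 1 to 4 and at 10.7, 11.6, 10.9 and 11.9 FPKM in EV replicates 1 to 4 (log2 -0.739, SE 0.0935, limma adjusted p = 0.0169). The one that rose was Pik3cb, a catalytic subunit of PI3K, at 4.37, 4.46, 3.53 and 3.55 FPKM in YAP replicates 1 to 4 and at 2.44, 2.13, 2.09 and 1.78 FPKM in EV replicates 1 to 4 (log2 0.78, SE 0.119, limma adjusted p = 0.0284). For both genes the groups did not overlap. Pik3ca, the other catalytic subunit listed, averaged 11.6 ± 0.824 FPKM in YAP and 10.8 ± 0.905 FPKM in EV libraries (limma adjusted p = 0.674). Pik3r2, the other regulatory subunit listed, was more abundant than Pik3r1 and did not pass. It averaged 34.2 ± 4.15 FPKM in YAP and 37.1 ± 1.83 FPKM in EV libraries (limma adjusted p = 0.452). The call of Pik3r1 held without YAP replicate 1 and was lost without any other 1 library, and that of Pik3cb was lost without any 1 library (adjusted p up to 0.072 and 0.107).

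Of 20 tested genes of receptor down-regulation and phosphatases, 1 rose, 0 fell and 19 did not pass, with a median log2 difference of -0.031. Spry1, a feedback inhibitor of receptor tyrosine kinase signalling, stood at 15.7, 16.5, 19.5 and 20.2 FPKM in YAP replicates 1 to 4 and at 12.4, 11.2, 13.8 and 14.5 FPKM in EV replicates 1 to 4 (log2 0.452, SE 0.0689, limma adjusted p = 0.0284). Its call was lost without any 1 library (adjusted p 0.0701 to 0.113). Of 18 genes of the downstream MAPK and AKT pathways 0 passed, with log2 differences from -0.117 to 0.227, and Mapk3 (ERK1) and Map2k1 (MEK1) had the smallest p (limma adjusted p = 0.574 and 0.639). Of 15 tested immediate early genes that PDGF induces in fibroblasts 0 passed, with a median log2 difference of 0.132. Of the 15, 8 lay above 0 and 7 below. The 2 with the smallest p both lay above 0, and their groups overlapped. Ier3 averaged 38.1 ± 7.35 FPKM in YAP and 31.0 ± 7.35 FPKM in EV libraries, and the chemokine Cxcl1 35.1 ± 9.19 FPKM in YAP and 27.0 ± 4.32 FPKM in EV libraries (limma adjusted p = 0.138 and 0.229).

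Among 10 tested relatives of the PDGFs and their receptors, which include the VEGFs and the related receptor kinases with their ligands, 1 rose, 0 fell and 9 did not pass, with a median log2 difference of 0.261. Csf1, the ligand of the receptor encoded next to Pdgfrb, stood at 203, 227, 227 and 250 FPKM in YAP replicates 1 to 4 and at 153, 128, 124 and 137 FPKM in EV replicates 1 to 4 (log2 0.742, SE 0.0957, limma adjusted p = 0.0169). Its call held without YAP replicate 1 or EV replicate 1 and was lost without any other 1 library (adjusted p up to 0.0813). Kit and Kdr, receptor kinase genes that lie next to Pdgfra on chromosome 5, were below the level filter.

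Of 20 YAP target genes 5 rose, 1 fell and 14 did not pass, and the groups did not overlap for 11. Among all tested genes, 1.76% were called and the groups did not overlap for 9.46%. Without 1 library in turn, Cyr61, which rose, and Igfbp3, which fell, were called in 8 of 8 fits and Ctgf in 6, while Amotl2 was called in 3, Ankrd1 in 2 and Lats2 in 1 (adjusted p up to 0.0663, 0.0784 and 0.0806). All 12 fibroblast defining markers averaged over 1 FPKM, with a sum of 10000 to 11500 FPKM in YAP and 9860 to 10500 FPKM in EV libraries, and 1 of them fell, Lum (20.6 ± 4.86 FPKM in YAP and 50.9 ± 4.66 FPKM in EV libraries, limma adjusted p = 0.0122). Of 15 tested macrophage markers 3 fell, C1qa, C1qc and Ms4a7. In this list 13 of 15 lay below 0 and 2 above, with a median log2 difference of -0.329, and the groups did not overlap for 4. Of 2 tested endothelial markers 1 fell, Erg. The endothelial markers Kdr and Tek, below the level filter, were higher in every YAP library than in any EV library. Kdr averaged 1.17 ± 0.0939 FPKM in YAP and 0.552 ± 0.244 FPKM in EV libraries. Tek averaged 1.41 ± 0.619 FPKM in YAP and 0.38 ± 0.21 FPKM in EV libraries. C1qa and Ms4a7 stayed called in 2 of 8 fits without 1 library and C1qc in 0 (adjusted p up to 0.0657, 0.101 and 0.115). The call of Lum was lost without YAP replicate 2 or without EV replicate 1, 2 or 4 (adjusted p up to 0.0601), and that of Erg without YAP replicate 2 or any 1 EV library (adjusted p up to 0.0817). The FPKM of a library added up to between 733152 and 1018400, and sequencing depth is unknown.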

How the data were processed

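The authors deposited FPKM per gene for each of the 8 libraries, and a second table with pooled FPKM for each arm beside the authors' p-values and q-values, per the file headers. TopHat, Cufflinks and mm10 are named without versions in the submitters' processing notes. How libraries were scaled to each other, and the read counts, are not given in the sources used here. Cells were sorted on the reporter, per the series' design text, and RNA was extracted with Trizol for a stranded mRNA kit, per the labels' protocols.

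Of 48641 rows, 114 whose identifier stood on several rows were left out. Genes with a mean of at least 1 FPKM over the 8 libraries were tested on log2(FPKM + 0.5), which understates changes of low genes, with limma 3.58.1 in R 4.3.3 (variance trend, group and reporter as terms, Benjamini-Hochberg adjustment over 13276 genes, threshold 0.05). The fit was tested on simulated data. Positions are from GENCODE M21 and promoter windows from RefSeq (GRCm38.p6). Tables and exact tests used Python 3.11.15, pandas 2.3.3 and scipy 1.17.1.

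The members and gene lists were chosen with earlier results of these data known. Pdk1, which encodes a mitochondrial pyruvate dehydrogenase kinase, was taken off the MAPK and AKT list as misplaced, after its values were seen. Named genes were all members, the called genes of each list (or the 2 with the smallest p where none was called), the 3 nearest profiles of each member, and tested neighbours within 200 kb, which are given as counts apart from Chic2 and Csf1r. Genes named outside this rule were named after their values were seen. Among them, Plau, Plat, St14, Furin, Nrp1, Pik3ca, Pik3r2, Kit, Kdr, Tek and the mural markers below the level filter were named for their role. Egfl7, Ly6a, Cd248, Gli1, Acta2 and Tagln were named for their place in a list or its sum. Alternatives changed the pseudocount, level filter, scaling, variance trend, reporter term, replicate block and the libraries used. A called gene of the ligand activation list, which stays in that list's counts, and a nearest profile of Pdgfc are not reported here.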

Additional observations from a re-analysis of the deposited data

Results flagged for a closer look

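Single libraries stood apart from the rest of their group in 10 of 92 groups of 4 values screened, where chance gives about 5%. The measure is the gap of the farthest library to its nearest neighbour as a share of the group's range. Among the members it was 0.896 for Pdgfa in YAP libraries (replicate 2 high, 27.0 FPKM), 0.855 for Pdgfc in YAP libraries (replicate 2 low, 15.9 FPKM) and 0.844 for Pdgfrb in YAP libraries (replicate 1 low, 50.0 FPKM). It was 0.858 for the Pdgfd share of the ligand sum in EV libraries, where replicate 2 was low at 16.3%.

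Among other named genes it was 0.883 for Cnn1 in EV libraries (replicate 1 low, 37.1 FPKM) and 0.932 for Ms4a7 in EV libraries (replicate 3 high, 10.5 FPKM). For Pf4 in YAP libraries it was 1.0, since replicate 1 was at 0.874 FPKM and the other YAP libraries were listed at 0. It was 0.944 for Stmn2 in YAP libraries (replicate 2 low, 14.3 FPKM). For Thbs2 it was 0.877 in YAP libraries (replicate 4 low, 64.0 FPKM) and 0.85 in EV libraries (replicate 4 high, 115 FPKM).

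Chic2, the neighbour of Pdgfra, had opposite directions under the reporters. It stood at 19.8 and 26.0 FPKM in YAP and 26.6 and 36.3 FPKM in EV libraries with GFP, and at 31.9 and 27.2 FPKM in YAP and 13.8 and 20.1 FPKM in EV libraries with mCherry. The log2 difference between the reporters' YAP effects was 1.25 and did not pass the test (limma adjusted p = 0.389).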

How the results depend on the processing

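Under both other pseudocounts, no level filter, both other scalings, no variance trend and no reporter term, all 7 members kept their direction and their side of the threshold. Same-numbered YAP and EV libraries shared a reporter, and the labels do not say whether they were handled together. Correlations of their deviations from the group means were 0.0521, 0.0206, -0.015 and 0.0897. Such correlations over all genes cannot show that nothing was shared for single genes. With the number as a replicate block, the adjusted p of limma was 0.0746 for Pdgfd (log2 1.05) and 0.151 for Pdgfra (log2 -0.55), 0 members were called, and 6 genes were higher and 9 lower, against 124 and 109 without the block. The Pdgfra to Pdgfrb ratio (-0.363) then had an exact p of 0.125, the smallest that 4 pairs allow.

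With GFP libraries alone Pdgfd differed by 1.1 and Pdgfra by -0.453, and with mCherry libraries alone by 0.996 and -0.651. Neither passed when limma was fitted to 1 reporter's libraries alone, with 2 per group. There 0 members were called, and 7 (GFP) and 9 (mCherry) genes were higher and 13 lower under either reporter. The ratio difference was -0.237 and -0.49 there. Without both libraries of replicate 2, chosen after seeing the data, Pdgfd was at 0.945, Pdgfra at -0.623 and the ratio at -0.398 (exact p = 0.1, the smallest possible), with 0 members, 1 higher and 3 lower genes called. Higher genes numbered 75 with no level filter, 78 with no variance trend and 80 with no reporter term, and lower genes 71 with no level filter and 70 with no reporter term.

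Leaving out each library in turn gave 0.943 to 1.13 for Pdgfd, -0.608 to -0.496 for Pdgfra, 0 to 1 members called, 24 to 55 genes higher and 17 to 55 lower. The ratio was -0.418 to -0.321, with exact p of 0.0571, the smallest possible. Pdgfa reached -0.199 to 0.0711 and Pdgfrl -0.119 to 0.0448. With GFP alone the direction turned for Pdgfa (0.012), Pdgfb (-0.15), Pdgfrl (0.189), Chic2 (-0.444), Map2k1 (-0.167) and Csf1r (0.00824). It also turned for Chic2 without EV replicate 3 (-0.051 to 0.393 over the libraries left out) and for Csf1r without YAP replicate 1 or EV replicate 4 (-0.19 to 0.0525). The reporter difference of the Pdgfd effect turned without EV replicate 2 (-0.343 to 0.133) and without both replicate 2 libraries (0.154). The cause of these changes was not tested. All 26 other named genes called kept their direction under every alternative run, and 5 stayed called under the block, 0 with either reporter alone, 0 without both replicate 2 libraries and 7 to 15 without 1 library. Read counts were not used here, so the precision of low genes such as Pdgfb is limited by an unknown depth.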
